A study of Mus musculus with 6 samples.

Results

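The tumour necrosis factor (TNF) superfamily comprises trimeric ligands, mostly made as membrane proteins on immune cells, and the cysteine-rich receptors that they bind. Some receptors carry a death domain and can start cell death, others recruit TRAF adaptors and turn on NF-kappaB, and a few act as decoys that take up ligand without signalling. Macrophages that meet a microbe are a main source of TNF itself, whereas several other ligands and receptors are best known from lymphocytes and dendritic cells. The family was taken as protein-coding rows of the deposited gene table whose symbol begins with Tnfsf or Tnfrsf, together with *Tnf*, *Lta*, *Ltb*, *Ltbr*, *Fas*, *Fasl*, *Cd27*, *Cd70* and *Cd40lg*, and without the BAFF and APRIL system (*Tnfsf13*, *Tnfsf13b*, *Tnfrsf13b*, *Tnfrsf13c* and *Tnfrsf17*). This gave 36 genes, 16 ligands and 20 receptors, of 54532 rows in all.

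RNA was measured in primary macrophages from mice labelled METRNL knockout (KO, 3 libraries) and from wild-type mice (WT, 3 libraries). METRNL is the secreted protein meteorin-like. Cells of both genotypes were isolated, cultured and then exposed to the fungus *Candida albicans* for 6 h, so no unexposed cells enter the comparison. The labels do not give the allele, strain, age or tissue of origin, nor whether replicates were separate animals, so p-values speak only for the spread among these 6 libraries, some of which may be technical.

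Levels are FPKM, fragments scaled by gene length and a size per library, and recovered reads in genes came to 11026529 to 15724897 per library. The size used in the deposited values was not simply the reads in genes. With 14772746 such reads in KO replicate 1 and 14915816 in KO replicate 3, 2 reads of *Tnfsf10* gave 0.0297 and 0.0253 FPKM. Summed FPKM was highest in KO replicate 1 (412048) and lowest in WT replicate 1 (311409). The part of this scaling in the results was not tested. The targeted gene *Metrnl* kept its RNA, at 51.2, 63.6 and 62.8 FPKM in KO replicates 1 to 3, against 93.5, 63.2 and 69.8 FPKM in WT replicates 1 to 3, and did not pass the test (limma adjusted p = 0.181). A value per gene does not show which exons remain, so KO means libraries labelled KO throughout. Macrophage markers were present in all libraries. The 11 markers summed to 10052 to 10604 FPKM in KO and 5774 to 6771 FPKM in WT, and 4 rose and 1 fell. *Lyz2*, *Cd14* and *Lgals3* were the most abundant, of which *Cd14* and *Lgals3* did not pass. Summed B cell markers stood at 19.9 to 25.3 FPKM in KO against 359 to 437 FPKM in WT, and all 10 fell, with *Ighm*, *Cd79a* and *Cd79b* the most abundant. Dendritic cell markers came to 42.8 to 55.3 FPKM in KO against 148 to 239 FPKM in WT, and 6 of 8 fell (most abundant *Ccl22*, *Fscn1* and *Ccr7*). T and NK cell markers came to 3.41 to 4.59 FPKM in KO against 12.3 to 14.6 FPKM in WT, and all 5 tested of 10 fell (most abundant *Trac*, *Trbc2* and *Lck*). Over all tested genes 15.7% rose and 12.4% fell by the same test, 28.0% in all. In bulk RNA, fewer cells of a type and less RNA per cell cannot be told apart. Of the tested markers of mast cells 4 of 4 fell (most abundant *Tpsb2*, *Cma1* and *Cpa3*), of mesothelial cells and fibroblasts 4 of 6 (most abundant *Sparc*, *Col1a1* and *Dcn*, of which *Dcn* did not pass) and of neutrophils 2 of 8 (most abundant *S100a8*, *S100a9* and *Mmp8*, of which *S100a9* did not pass). Retinal markers (*Pde6b*, *Sag* and *Rcvrn* the most abundant), included because the RNA extraction note mentions retinas although cell type and source labels say macrophages, summed to at most 1.37 FPKM in any library. KO replicate 1 and WT replicate 1 each differed from the rest of their group. The table heads the KO columns with K and a number, read here as the knockout titles with the same number. Summed B cell markers in both libraries numbered 1 were on their label's side, at 25.3 FPKM in KO replicate 1 and 359 FPKM in WT replicate 1. By a chi-square of reads over its degrees of freedom, where 1 is sampling noise, they differed from their own group's libraries by 39.6 to 59.4, while KO replicates 2 and 3 differed by 2.30 and WT replicates 2 and 3 by 7.10. Results are therefore given with and without the libraries numbered 1. These libraries were chosen for leaving out after their values were seen, and the fit without them keeps the closest libraries of each group. Its p-values are therefore not on the same footing as those with all libraries.

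Levels within the family spanned more than the genotypes did. *Tnf* alone made up 82.8% to 89.4% of the summed FPKM of the 36 genes in KO libraries and 87.5% to 91.1% in WT libraries, and ranked 4 or 5 among all genes in every library. *Tnfrsf1b*, the TNF receptor found mainly on blood and immune cells, made up 75.7% to 79.6% of the summed receptor FPKM in KO and 72.4% to 76.9% in WT. A mean of at least 10 FPKM over the 6 libraries was reached by 12 of the 36 genes, 4 ligands and 8 receptors, and a mean of at least 50 FPKM by 4 (*Tnf*, *Tnfrsf1b*, *Tnfsf9* and *Tnfrsf1a*). A filter of 0.5 FPKM on the mean of all 6 libraries left 25 genes, 10 ligands and 15 receptors, for testing.

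**Figure D1:**
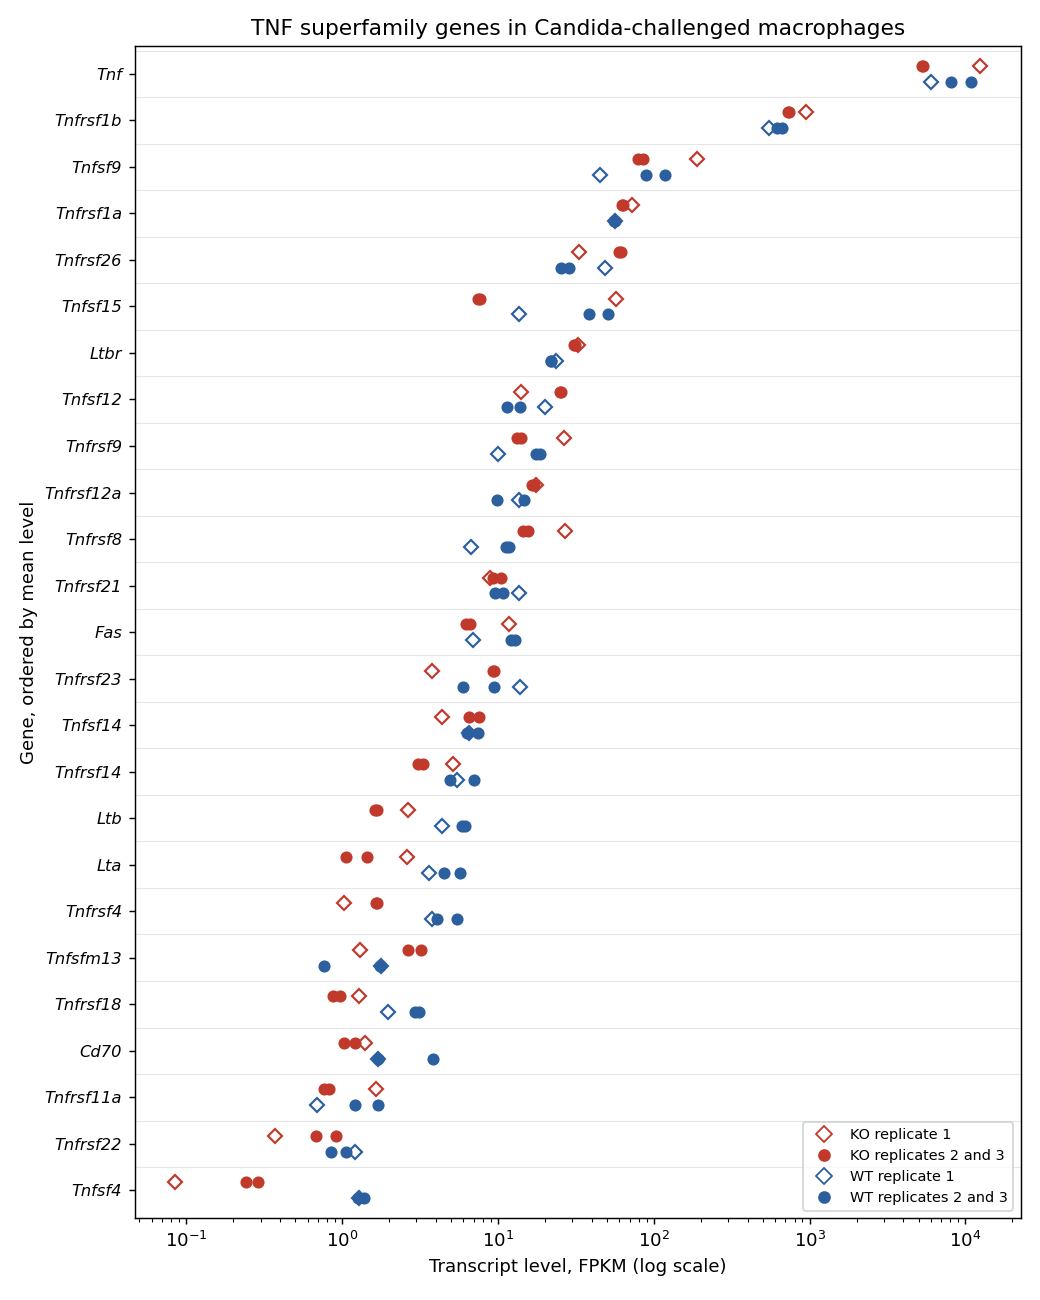
FPKM of the 25 tested genes on a log axis, ordered by mean level, with KO libraries in red above WT libraries in blue and replicate 1 of each group as an open diamond. *Tnf* lies near the top of the scale in all 6 libraries, and the open diamonds often lie far from the filled circles of their own group.

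Between genotypes, 1 of the 25 tested genes rose in KO (*Ltbr*) and 5 fell (*Tnfsf4*, *Ltb*, *Lta*, *Tnfrsf4* and *Tnfrsf18*), at a limma adjusted p below 0.05 over all 11689 genes tested. The share called, 24.0% of the tested family, is close to the 28.0% of all tested genes that were called (15.7% higher and 12.4% lower). The median log2 fold change (KO minus WT, taken on log2 of FPKM + 1) was -0.20 over the tested family and 0.03 over all tested genes. KO and WT values did not overlap for 11 of the 25 genes, 5 above (25.7% of all tested genes) and 6 below (19.9%), where 45.6% of all tested genes had no overlap. When each library was rescaled to the same total (TPM), 542 genes were higher and 1161 lower over all genes, against 1833 and 1445 with the deposited scaling. The family then again had 1 gene higher and 5 lower, but the higher one was *Tnfrsf8* and not *Ltbr*.

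**Figure D2:**
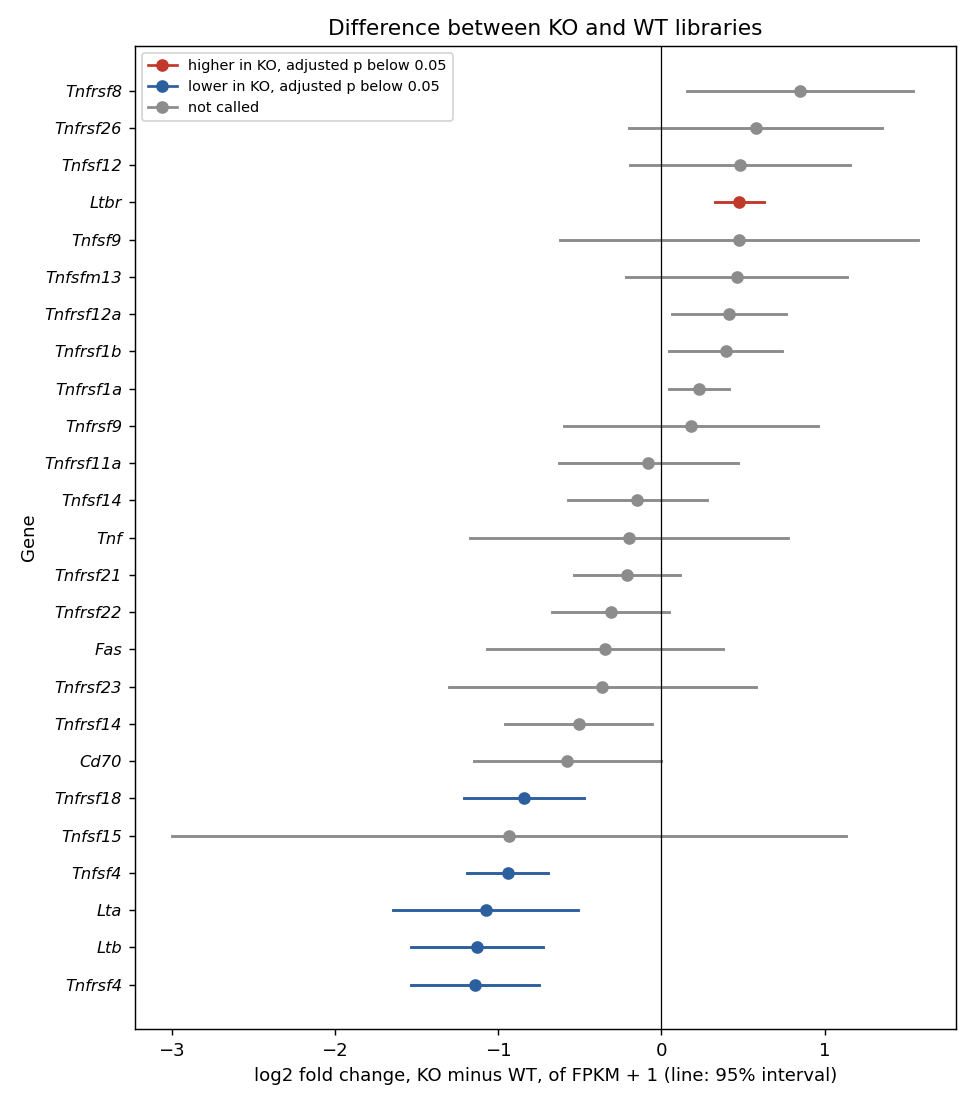
Log2 fold change of FPKM + 1, KO minus WT, with its 95% interval for the 25 tested genes. Only *Ltbr*, in red, was called higher and 5 genes, in blue, were called lower; *Tnfsf15* and *Tnfsf9* have the widest intervals.

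*Tnf* (ENSMUSG00000024401, chromosome 17, 35199381 to 35202007, GRCm38, minus strand) encodes the cytokine that gives the family its name. It stood at 12441, 5309 and 5276 FPKM in KO replicates 1 to 3, against 5999, 8119 and 10789 FPKM in WT replicates 1 to 3. KO replicate 1 was the highest library of all and WT replicate 1 the lowest of its group, and the groups overlapped. Group means were 7675 ± 4127 FPKM in KO and 8302 ± 2400.5 FPKM in WT (SD, n = 3 each), a log2 fold change of -0.20 ± 0.40 (SE) with a 95% interval of -1.17 to 0.77 (limma adjusted p = 0.753). Without both libraries numbered 1 the log2 fold change was -0.82 and passed (adjusted p = 0.0232). It lay between -0.61 and 0.012 when 1 library was left out, and was above 0 without KO replicate 2 (0.0057), KO replicate 3 (0.0102) or WT replicate 3 (0.012).

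*Lta* and *Ltb*, the 2 immediate neighbours of *Tnf* in the family's run on chromosome 17, fell. Their products, the lymphotoxins, are made chiefly by lymphocytes and assemble into a membrane complex that binds the receptor encoded by *Ltbr*. *Ltb* (ENSMUSG00000024399, 35194439 to 35196320, plus strand) stood at 2.63, 1.67 and 1.63 FPKM in KO replicates 1 to 3, against 4.40, 5.88 and 6.17 FPKM in WT replicates 1 to 3. All KO values lay below all WT values, 2.77-fold lower on the means (log2 fold change -1.13 ± 0.17 SE, with a limma adjusted p of 0.00548). *Lta* (ENSMUSG00000024402, 35203165 to 35205351, minus strand), whose product also forms a secreted trimer that binds the TNF receptors, stood at 2.60, 1.05 and 1.45 FPKM in KO replicates 1 to 3, against 3.61, 4.48 and 5.72 FPKM in WT replicates 1 to 3. The groups did not overlap, and the mean was 2.71-fold lower in KO (log2 fold change -1.08 ± 0.24 SE, limma adjusted p = 0.0192). This call of *Lta* was lost without KO replicate 2 (adjusted p = 0.0574), KO replicate 3 (0.0667), WT replicate 2 (0.0617) or WT replicate 3 (0.065), and the gene rested on 99 reads over the KO libraries and 252 over the WT libraries.

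The 3 genes lie within 10913 bases, and their upstream sequences are shown with that of *Tnfsf15*, the tested ligand gene with the highest SD relative to its mean in both groups. Sequences are from RefSeq on GRCm38.p6, 5′ to 3′ on each gene's strand, and stop before the earlier of the RefSeq and the deposited gene start. Capitals mark a match to the kappaB consensus, the site bound by NF-kappaB, or to TATAAA, on either strand. The consensus was searched as GGGRNNYYCC, with R for A or G, Y for C or T and N for any base. Sites with other letters or further upstream are not marked.
Tnf, chr17:35202008-35202257, minus strand: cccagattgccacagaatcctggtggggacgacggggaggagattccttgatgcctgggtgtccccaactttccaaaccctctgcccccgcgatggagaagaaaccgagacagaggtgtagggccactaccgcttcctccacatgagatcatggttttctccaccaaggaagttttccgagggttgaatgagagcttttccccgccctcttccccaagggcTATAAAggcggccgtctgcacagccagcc
Lta, chr17:35205352-35205601, minus strand: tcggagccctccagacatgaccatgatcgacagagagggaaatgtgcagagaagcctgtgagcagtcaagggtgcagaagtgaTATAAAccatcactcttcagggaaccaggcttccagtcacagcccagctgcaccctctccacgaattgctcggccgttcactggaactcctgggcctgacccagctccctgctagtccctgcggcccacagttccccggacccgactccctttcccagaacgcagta
Ltb, chr17:35194257-35194438, plus strand: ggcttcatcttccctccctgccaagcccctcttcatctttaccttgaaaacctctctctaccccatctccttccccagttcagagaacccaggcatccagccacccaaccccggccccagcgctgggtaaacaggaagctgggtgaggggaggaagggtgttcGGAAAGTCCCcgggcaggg
Tnfsf15, chr4:63745114-63745309, minus strand: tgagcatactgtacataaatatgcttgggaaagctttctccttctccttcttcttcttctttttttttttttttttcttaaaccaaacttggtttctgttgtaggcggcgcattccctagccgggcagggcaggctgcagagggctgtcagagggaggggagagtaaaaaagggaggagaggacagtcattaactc

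Of the 36 genes, 27 had an upstream window of 250 bases in the RefSeq table, some of them more than 1, and 4 of these genes held the kappaB consensus (*Ltb*, *Tnfrsf8*, *Tnfrsf9* and *Tnfrsf25*). That was 4 of the family's 30 windows, 13.3%, against 7.25% of all 32851 windows. The AP-1 letters TGANTCA were found for 4 genes (*Fas*, *Tnfrsf8*, *Tnfrsf9* and *Tnfsf14*), in 13.3% of the family's windows against 6.75% of all windows. TATAAA was found for 5, among them *Tnf* and *Lta*, in 16.7% of the family's windows against 12.4% of all windows. The letters GAAA, any 2 bases and GAAA, part of the interferon response element, were found for *Tnfrsf1b* and *Tnfrsf14*. That was 6.67% of the family's windows, against 2.98% of all windows. Both strands were searched, and the AP-1 and interferon letters were not in the stretches shown. A match is a description of letters, not of a bound site.

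Among the other ligands, *Tnfsf15*, which encodes TL1A, the ligand of the receptor encoded by *Tnfrsf25*, had the highest SD relative to its mean of the tested ligand genes, in KO and in WT. It stood at 57.3, 7.44 and 7.64 FPKM in KO replicates 1 to 3, against 13.6, 50.5 and 38.3 FPKM in WT replicates 1 to 3. KO replicate 1 was 7.61-fold above the mean of the other KO libraries, while WT replicate 1 was 3.27-fold below the mean of the other WT libraries. Over all 6 libraries the groups overlapped and the gene did not pass (log2 fold change -0.93 ± 0.86 SE, limma adjusted p = 0.463). Without both libraries numbered 1 it was 5.89-fold lower in KO (log2 fold change -2.40, adjusted p = 0.00123).

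*Tnfsf9*, whose product co-stimulates T cells through the receptor encoded by *Tnfrsf9*, also had its highest KO level in replicate 1 and its lowest WT level in replicate 1. It stood at 190.6, 85.4 and 79.4 FPKM in KO replicates 1 to 3, against 45.2, 89.5 and 117 FPKM in WT replicates 1 to 3. KO replicate 1 was highest and WT replicate 1 lowest, while the other KO libraries lay below the other WT libraries, and the gene did not pass with all libraries (limma adjusted p = 0.481) or without those numbered 1 (0.155), where the log2 fold change was -0.31 in place of 0.48. *Tnfrsf9* stood at 26.4, 14.0 and 13.3 FPKM in KO replicates 1 to 3, against 10.04, 18.7 and 17.5 FPKM in WT replicates 1 to 3. This receptor gene had its highest value in KO replicate 1 and its lowest in WT replicate 1, and did not pass (log2 fold change 0.18, limma adjusted p = 0.714). Without both libraries numbered 1 it was called lower in KO (log2 fold change -0.38, adjusted p = 0.0151), and its log2 fold change was -0.12 without KO replicate 1 alone and -0.082 without WT replicate 1 alone.

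*Tnfsf12* encodes TWEAK, a ligand of tissue repair made by monocytes and macrophages, and ran the other way. It stood at 14.1, 25.1 and 25.4 FPKM in KO replicates 1 to 3, against 19.97, 11.4 and 13.8 FPKM in WT replicates 1 to 3. KO replicate 1 was the lowest KO library, WT replicate 1 the highest WT library, and the groups overlapped (log2 fold change 0.48 ± 0.28 SE, limma adjusted p = 0.251). Without both libraries numbered 1 it was 2.003-fold higher in KO and passed (adjusted p = 0.00448). The table holds a further gene, *Tnfsfm13*, that spans *Tnfsf12* and *Tnfsf13* on the same strand, at 1.29 to 3.22 FPKM in KO and 0.76 to 1.79 FPKM in WT, so the counting may have split their reads (limma adjusted p = 0.269).

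*Tnfsf4*, which encodes the OX40 ligand of antigen-presenting cells, showed the lowest KO level of the called genes. It stood at 0.0849, 0.241 and 0.29 FPKM in KO replicates 1 to 3, against 1.29, 1.38 and 1.26 FPKM in WT replicates 1 to 3. The groups lay far apart, with the mean 6.38-fold lower in KO (log2 fold change -0.94 ± 0.10 SE, limma adjusted p = 0.00187), on 17 reads over the KO libraries and 97 over the WT libraries. *Cd70*, a ligand of activated lymphocytes and dendritic cells, stood at 1.39, 1.204 and 1.03 FPKM in KO replicates 1 to 3, against 1.70, 3.83 and 1.71 FPKM in WT replicates 1 to 3. All KO values lay below all WT values, but WT replicate 2 stood above the rest of its group and the gene did not pass (limma adjusted p = 0.122). *Tnfsf14*, which encodes LIGHT, a ligand of LTBR and of the receptor encoded by *Tnfrsf14*, was at 4.36 to 7.59 FPKM in KO and 6.32 to 7.45 FPKM in WT and did not pass (limma adjusted p = 0.581). Its log2 fold change of -0.15 became 0.047 without KO replicate 1.

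Of the 15 tested receptor genes, *Ltbr* rose and *Tnfrsf4* and *Tnfrsf18* fell. *Ltbr* (ENSMUSG00000030339, chromosome 6, 125306571 to 125313885, minus strand), whose product drives the alternative NF-kappaB pathway, stood at 32.7, 30.8 and 31.4 FPKM in KO replicates 1 to 3, against 23.6, 21.9 and 22.0 FPKM in WT replicates 1 to 3. Values within each group were close together and did not overlap, a 1.41-fold higher mean in KO (log2 fold change 0.48 ± 0.06 SE, limma adjusted p = 0.0036), and the log2 fold change was 0.49 without both libraries numbered 1. In TPM it was 0.41 and did not pass (adjusted p = 0.0783).

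The neighbours *Tnfrsf4* and *Tnfrsf18*, within 15053 bases on chromosome 4, encode OX40 and GITR, co-stimulatory receptors known best from T cells. *Tnfrsf4* (ENSMUSG00000029075, 156013843 to 156016612, plus strand) stood at 1.03, 1.67 and 1.66 FPKM in KO replicates 1 to 3, against 3.75, 5.48 and 4.04 FPKM in WT replicates 1 to 3. It was 3.04-fold lower in KO with no overlap (log2 fold change -1.14 ± 0.16 SE, limma adjusted p = 0.00476). *Tnfrsf18* (ENSMUSG00000041954, 156026164 to 156028895, plus strand) stood at 1.28, 0.873 and 0.963 FPKM in KO replicates 1 to 3, against 1.96, 3.12 and 2.94 FPKM in WT replicates 1 to 3. It was 2.57-fold lower in KO, also with no overlap (log2 fold change -0.84 ± 0.15 SE, limma adjusted p = 0.0104), on 68 reads over the KO libraries and 160 over the WT libraries. *Tnfrsf18* lies within the antisense gene *Gm16008* on the other strand (0.0479 to 0.449 FPKM), and with the strand setting not given their reads cannot be told apart. *Tnfsf4* and its receptor gene *Tnfrsf4* were the only pair, of the 10 ligand and receptor pairs with both genes tested, in which both fell. In the pair *Ltb* and *Ltbr* the ligand gene fell and the receptor gene rose, and in 5 of the 10 neither gene was called.

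The 5 genes that fell each averaged below 6 FPKM in both groups and are known from lymphocytes or dendritic cells, whose summed markers were lower in the same KO libraries (19.9 to 25.3 FPKM in KO against 359 to 437 FPKM in WT for B cells). The marker sums of T and NK cells and of dendritic cells given above moved the same way, with no marker at 0 in all 6 libraries. The part of these cells in the results was not tested.

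The TNF receptor genes themselves did not pass. *Tnfrsf1b* stood at 953.7, 733.8 and 726 FPKM in KO replicates 1 to 3, against 548, 617 and 662 FPKM in WT replicates 1 to 3. All KO values lay above all WT values, with a log2 fold change of 0.39 ± 0.14 (SE) and a limma adjusted p of 0.088. *Tnfrsf1a*, which encodes the widely expressed death domain receptor of TNF, stood at 72.3, 62.5 and 63.7 FPKM in KO replicates 1 to 3, against 56.4, 56.6 and 55.3 FPKM in WT replicates 1 to 3. Here too all KO values lay above all WT values (log2 fold change 0.23 ± 0.08 SE, limma adjusted p = 0.0667). *Tnfrsf12a*, whose product Fn14 is the receptor of TWEAK, was at 16.5 to 17.6 FPKM in KO and 9.80 to 14.8 FPKM in WT, likewise without overlap and not called (limma adjusted p = 0.0804). Overlap is given for the deposited scaling. In TPM the log2 fold change was 0.31 for *Tnfrsf1b*, 0.15 for *Tnfrsf1a* and 0.35 for *Tnfrsf12a* (limma adjusted p = 0.0553, 0.398 and 0.23).

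*Tnfrsf8*, which encodes the receptor CD30, stood at 26.9, 15.7 and 14.4 FPKM in KO replicates 1 to 3, against 6.74, 11.3 and 11.8 FPKM in WT replicates 1 to 3. Every KO library lay above every WT library, with KO replicate 1 highest and WT replicate 1 lowest, and the spread within groups left it uncalled (log2 fold change 0.85 ± 0.29 SE, limma adjusted p = 0.0731). It passed in TPM (adjusted p = 0.0443) and without both libraries numbered 1 (log2 fold change 0.35, adjusted p = 0.0224).

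*Fas*, the gene of the death receptor for Fas ligand, stood at 11.8, 6.65 and 6.22 FPKM in KO replicates 1 to 3, against 6.89, 12.2 and 13.0 FPKM in WT replicates 1 to 3. KO replicate 1 was near the high WT libraries and WT replicate 1 near the low KO ones, and the gene did not pass (limma adjusted p = 0.436). Without both libraries numbered 1 it was 1.95-fold lower in KO (log2 fold change -0.87, adjusted p = 0.00245). *Tnfrsf14*, which encodes HVEM, the receptor of LIGHT, was at 3.06 to 5.11 FPKM in KO and 4.94 to 6.97 FPKM in WT and did not pass (limma adjusted p = 0.0902), but passed as lower without KO replicate 1 (log2 fold change -0.69, adjusted p = 0.0236).

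The mouse receptor genes *Tnfrsf26*, *Tnfrsf22* and *Tnfrsf23* lie next to each other within 78214 bases on chromosome 7, and the last pair encode decoy receptors of TRAIL in mice. *Tnfrsf26* stood at 33.3, 61.3 and 60.2 FPKM in KO replicates 1 to 3, against 49.0, 25.5 and 28.6 FPKM in WT replicates 1 to 3. KO replicate 1 was the lowest KO library and WT replicate 1 the highest WT library, and the call was absent with all libraries (limma adjusted p = 0.229) and present as 2.25-fold higher without those numbered 1 (adjusted p = 0.00147). *Tnfrsf23* was at 3.79 to 9.37 FPKM in KO and 6.00 to 13.9 FPKM in WT (limma adjusted p = 0.533), with a log2 fold change of -0.36 that became 0.0092 without KO replicate 1. *Tnfrsf22* was at 0.371 to 0.918 FPKM in KO and 0.846 to 1.21 FPKM in WT (limma adjusted p = 0.171). *Tnfrsf22* and *Tnfrsf23* are near copies whose reads the counting may have split. All 3 overlap the antisense gene *E230032D23Rik* (0.46 to 1.72 FPKM), and *Tnfrsf9* overlaps *Camta1* on the other strand (0.241 to 0.479 FPKM); with the strand setting not given, reads there cannot be told apart.

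The remaining tested receptor genes were *Tnfrsf21* and *Tnfrsf11a*. *Tnfrsf21*, which encodes the death domain receptor DR6, was at 8.92 to 10.5 FPKM in KO and 9.55 to 13.7 FPKM in WT (limma adjusted p = 0.289). *Tnfrsf11a*, which encodes RANK, the receptor of osteoclast formation, was at 0.762 to 1.65 FPKM in KO and 0.688 to 1.69 FPKM in WT (limma adjusted p = 0.825). Its log2 fold change of -0.08 was above 0 without KO replicate 2 (0.026), KO replicate 3 (7.8e-04) or WT replicate 2 (0.079).

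The libraries numbered 1 gave the family its most common pattern. In 12 of the 25 tested genes (*Tnf*, *Tnfsf9*, *Tnfsf15*, *Lta*, *Ltb*, *Cd70*, *Fas*, *Tnfrsf1b*, *Tnfrsf8*, *Tnfrsf9*, *Tnfrsf11a* and *Tnfrsf18*) KO replicate 1 was the highest KO library and WT replicate 1 the lowest WT library, 48.0% against 21.9% of all tested genes. In 6 (*Tnfsf12*, *Tnfsfm13*, *Tnfrsf21*, *Tnfrsf22*, *Tnfrsf23* and *Tnfrsf26*) both were reversed, 24.0% against 22.2% of all tested genes. Without both libraries, 4 of the 25 genes were called higher and 10 lower, against 35.6% of all tested genes called (19.3% higher and 16.3% lower), and all 6 calls made with all libraries were among these 14. KO replicates 2 and 3, and WT replicates 2 and 3, were the closest pairs within each group, so this fit has a smaller residual spread.

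**Figure D3:**
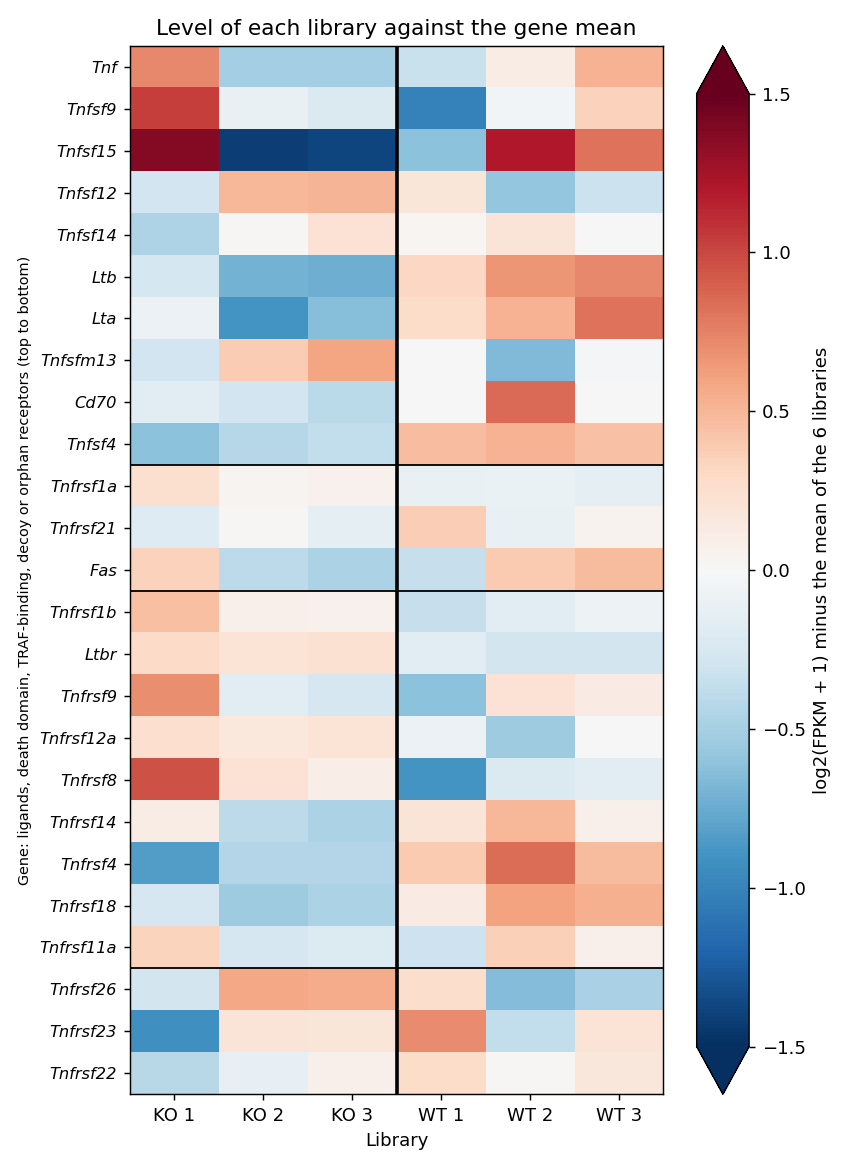
Log2(FPKM + 1) of each library minus the mean of all 6, for the 25 tested genes, with KO libraries left and WT libraries right of the thick line and roles divided by thin lines. In the rows of *Tnf*, *Tnfsf9*, *Tnfsf15* and *Tnfrsf9*, KO 1 is red and WT 1 blue, and in *Tnf*, *Tnfsf15* and *Tnfrsf9* the other libraries of each group have the opposite colour.

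**Figure D4:**
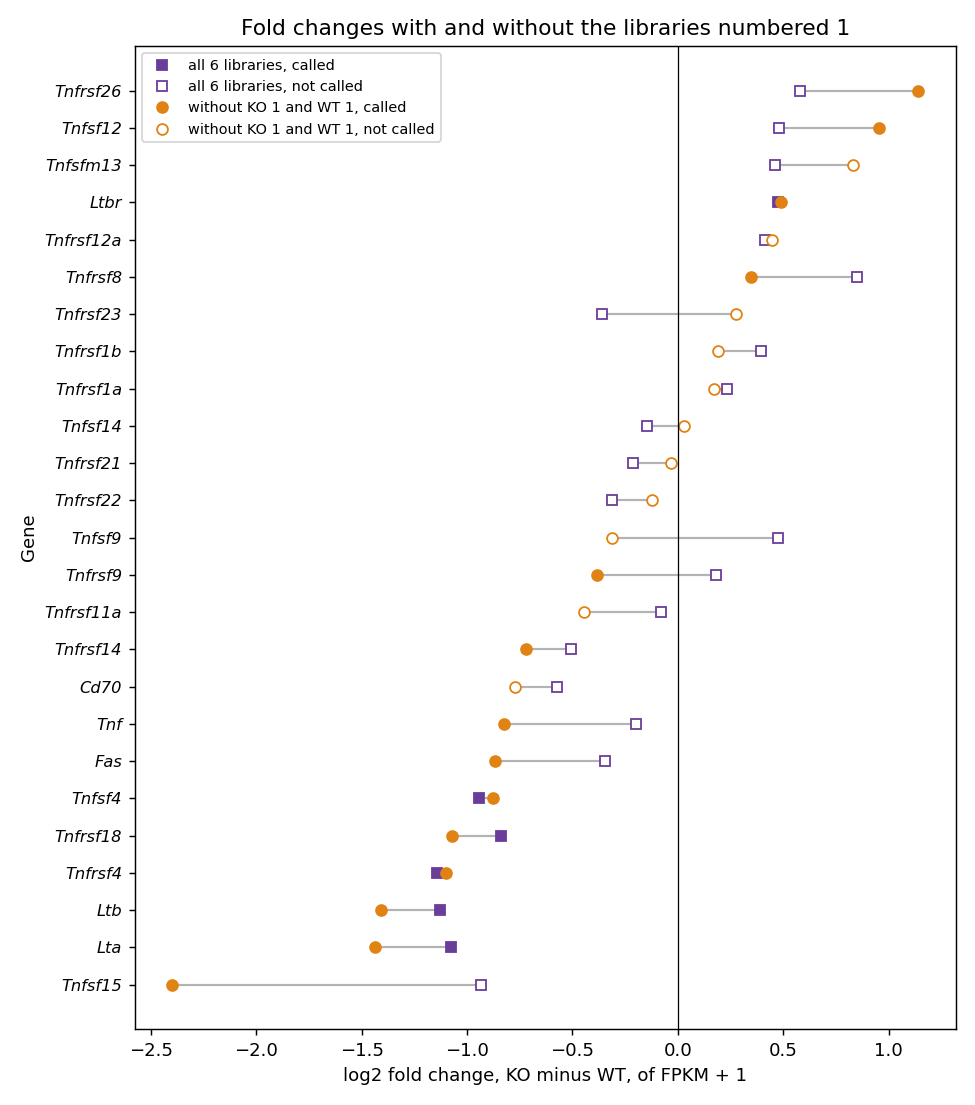
Log2 fold change of FPKM + 1, KO minus WT, with all 6 libraries (squares) and without KO replicate 1 and WT replicate 1 (circles), filled where called. *Ltbr*, *Tnfsf4* and *Tnfrsf4* barely move, while *Tnfsf15* moves to -2.40 from -0.93 and *Tnfsf9*, *Tnfrsf9*, *Tnfrsf23* and *Tnfsf14* change sign.

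The 11 genes under the filter were *Tnfsf8*, *Tnfsf10*, *Tnfsf11*, *Tnfsf18*, *Fasl*, *Cd40lg*, *Tnfrsf10b*, *Tnfrsf11b*, *Tnfrsf19*, *Tnfrsf25* and *Cd27*. They reached at most 1.00 FPKM in any library, on 12 to 202 reads over all libraries. *Tnfsf8*, which encodes the CD30 ligand, came closest to the filter, at 0.144, 0.166 and 0.175 FPKM in KO replicates 1 to 3, against 0.672, 1.00 and 0.734 FPKM in WT replicates 1 to 3. Its groups did not overlap, and it passed as lower when no filter was used (log2 fold change -0.63 ± 0.11 SE, limma adjusted p = 0.0214). *Cd27*, the receptor gene partnered with *Cd70*, was at 0.143 to 0.302 FPKM in KO and 0.515 to 0.803 FPKM in WT and did not pass there (limma adjusted p = 0.0667). *Cd27* lies within *Vamp1* on the other strand (0.323 to 0.736 FPKM), and with the strand setting not given their reads cannot be told apart. *Tnfsf10* (TRAIL) and *Tnfsf11* (the RANK ligand), the best known ligands of cell death and of bone loss in the family, stayed at or below 0.242 FPKM in all libraries.

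In the genome 22 of the 36 genes lie in 9 runs with gaps of at most 200 kb. These hold 19 of the 25 tested genes and all 6 that were called. Neighbours did not always share a call: *Tnf* lies between *Ltb* and *Lta*, which fell, and *Ltbr*, which rose, lies between *Cd27*, under the filter, and *Tnfrsf1a*, which did not pass.

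Genes of TNF release and transcript control, of receptor signalling and induced by TNF, with other receptor genes of the superfamily, were listed separately. They are called signalling genes here. Of 82 tested genes from 8 lists, 7 rose and 15 fell, 26.8% against 28.0% of all tested genes, with a median log2 fold change of -0.09 against 0.03 over all tested genes. The number that fell, with the number over all tested genes in brackets, was 15 (1445) with all libraries. It was 7 (851) without KO replicate 2, 9 (852) without KO replicate 3, 8 (989) without WT replicate 2 and 9 (879) without WT replicate 3. It was 36 (1908) without both libraries numbered 1, and 9 (1161) in TPM. Of 8 genes of TNF processing and release, 2 rose and 1 fell. *Adam17*, the gene of the protease that sheds TNF from the membrane, stood at 44.1, 41.4 and 41.4 FPKM in KO replicates 1 to 3, against 28.1, 29.1 and 31.7 FPKM in WT replicates 1 to 3 and rose (log2 fold change 0.50 ± 0.07 SE, limma adjusted p = 0.00452). *Litaf*, a gene named for induction of TNF by lipopolysaccharide, rose 1.34-fold and the inactive rhomboid gene *Rhbdf1* fell (limma adjusted p = 0.013 and 0.0332). Of 9 genes of TNF transcript control, *Zfp36l1* and *Zfp36l2*, which encode binders of AU-rich RNA elements, fell (limma adjusted p = 0.0327 and 0.0227) and none rose. Leaving out both libraries numbered 1 made 5 of these 9 genes called lower, as were 4 of the 9 TRAF adaptor genes and 4 of the 12 kinase genes described next. In that fit 16.3% of all tested genes were called lower.

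Among 8 tested death domain adaptors and kinases, *Mlkl*, the gene of the executor of necroptosis, and *Casp8*, the gene of caspase-8, fell. *Mlkl* stood at 10.3, 8.89 and 7.45 FPKM in KO replicates 1 to 3, against 17.0, 16.0 and 18.7 FPKM in WT replicates 1 to 3 (log2 fold change -0.89 ± 0.12 SE, limma adjusted p = 0.00385). Of 9 tested TRAF adaptor genes, *Traf5* and *Tank* rose and *Traf4* and *Traf7* fell. *Traf5* stood at 18.4, 17.8 and 17.3 FPKM in KO replicates 1 to 3, against 10.6, 9.36 and 10.6 FPKM in WT replicates 1 to 3 (log2 fold change 0.75 ± 0.07 SE, limma adjusted p = 0.00119). Groups did not overlap in either gene.

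Of 15 ubiquitin ligase and deubiquitinase genes, 2 rose and 5 fell. *Birc2*, the gene of cIAP1, a ligase bound to TRAF proteins, stood at 1.997, 2.25 and 1.92 FPKM in KO replicates 1 to 3, against 4.94, 7.84 and 5.81 FPKM in WT replicates 1 to 3 (log2 fold change -1.22 ± 0.15 SE, limma adjusted p = 0.00287). Also lower were the deubiquitinase gene *Cyld* and the linear ubiquitin ligase gene *Rbck1* (limma adjusted p = 0.00388 and 0.0107), while *Rnf11* and *Spata2* rose (0.00653 and 0.0276). Of 12 genes of kinases leading to NF-kappaB, *Chuk* (IKK-alpha) rose and *Map3k14* (NIK), which relay signals of LTBR, fell. *Map3k14* stood at 2.24, 2.13 and 2.54 FPKM in KO replicates 1 to 3, against 3.97, 3.60 and 3.54 FPKM in WT replicates 1 to 3 (log2 fold change -0.51 ± 0.08 SE, limma adjusted p = 0.00681).

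Of 22 tested genes known to be induced by TNF, 1 fell and none rose (4.55% called, against 28.0% of all tested genes). It was the chemokine gene *Cxcl10*, also known as an interferon target, at 1.98, 0.76 and 0.889 FPKM in KO replicates 1 to 3, against 3.71, 12.1 and 15.0 FPKM in WT replicates 1 to 3 (limma adjusted p = 0.0182). The summed level of the list was 25026, 12461 and 12757 FPKM in KO replicates 1 to 3, against 12494, 20079 and 23436 FPKM in WT replicates 1 to 3, with KO replicate 1 high and WT replicate 1 low as for *Tnf*. When those libraries were left out, 13 of the 22 genes were called lower and 1 higher. Over all tested genes that fit called 16.3% lower and 19.3% higher. Among the 13, chosen after their values were seen, the cytokine gene *Il6* had a log2 fold change of -2.40 (limma adjusted p = 4.4e-04, against -0.30 and 0.879 with all libraries) and the chemokine gene *Ccl2* of -2.24 (4.9e-04, against -1.20 and 0.194). *Cd40*, the receptor gene of *Cd40lg*, stood at 22.0, 7.68 and 8.03 FPKM in KO replicates 1 to 3, against 12.4, 25.9 and 22.8 FPKM in WT replicates 1 to 3 and did not pass (log2 fold change -0.75, limma adjusted p = 0.256). It was called lower without both libraries numbered 1 (log2 fold change -1.51, adjusted p = 0.00111). It too was highest among KO libraries in replicate 1 and lowest among WT libraries in replicate 1. *Relt*, another receptor gene of the superfamily outside the rule, fell (limma adjusted p = 0.0274).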

How the data were processed

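The authors deposited 1 table of FPKM values for 54532 Ensembl genes with coordinates on GRCm38 (per the submitters' processing notes), gene lengths in bases and other annotation. The aligner, counter, annotation release and strand setting were not given in the sources used here. Multiplying FPKM by gene length gave whole steps for 100% of values in each library (tolerance 0.05 of a step), and these were taken as reads, for depth only.

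Groups and replicate numbers came from sample titles. Values were analysed as log2(FPKM + 1) with limma 3.58.1 in R 4.3.3 for the 11689 genes averaging 0.5 FPKM or more in the 6 libraries, with genotype alone in the model, eBayes with a trend, and Benjamini-Hochberg adjusted p below 0.05 over all tested genes. This scale understates changes of low genes; folds are ratios of mean FPKM. The code was tested on simulated data. All members, up to 5 called genes of each signalling list (smallest p first), the 3 most abundant markers of each cell type, *Metrnl* and *Cd40* are named. Members, lists and tests were chosen with earlier results of these data known. Alternatives were another pseudocount, filter, scaling, moderation, a replicate block and left-out libraries. Deviations of same-numbered libraries from their group means were negatively correlated, most for number 1, and so were those of some libraries of unlike number.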

Additional observations from a re-analysis of the deposited data

How the results depend on the processing

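With both libraries numbered 1 left out, members called higher numbered 4 in place of 1 and members called lower 10 in place of 5, and signalling genes called lower numbered 36 in place of 15. Over all tested genes 35.6% were then called, against 28.0% with all libraries. A mean of at least 2 FPKM left 3 members called lower, since fewer low genes were tested, and 33.8% of all tested genes were called. Signalling genes called lower numbered 9 with no filter and 9 in TPM, where 8.51% and 14.6% of all tested genes were called. Leaving out 1 library gave 4 to 6 members called lower, 1 called higher, and 7 to 16 signalling genes called lower. The share called over all tested genes was then 15.1% to 25.8%. The log2 fold change then ranged from -0.61 to 0.012 for *Tnf*, -0.12 to 0.35 for *Tnfrsf9*, -0.64 to 0.0092 for *Tnfrsf23*, -0.29 to 0.047 for *Tnfsf14* and -0.27 to 0.079 for *Tnfrsf11a*. Without both libraries numbered 1 it was -0.31 for *Tnfsf9*, -0.38 for *Tnfrsf9*, 0.28 for *Tnfrsf23* and 0.028 for *Tnfsf14*, and with quantile normalization 0.055 for *Tnfrsf11a*. The cause was not tested.

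Same-numbered KO and WT libraries deviated from their group means with correlations of -0.50, -0.19 and -0.16 for replicates 1 to 3. Between libraries of unlike number the correlations ran from -0.26 to 0.36. Deviations from a group's own mean depend on each other, so these values cannot show whether the numbers mark a pairing. With the replicate block 1 member was called higher and 2 lower, and 1 signalling gene higher and 4 lower. Over all tested genes 9.27% were called with the block, against 28.0% without it. *Ltb* (adjusted p = 0.0514), *Lta* (0.0785) and *Tnfrsf18* (0.0665) were not called under the block. A pseudocount of 0.1, quantile normalization and robust eBayes each gave 1 member higher and 5 lower, with 26.3% to 27.9% of all tested genes called. Low members rest on few reads, and depth limits what can be seen for genes under the filter.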
